A study of Homo sapiens with 18 samples.

Results

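The thiolases other than ACAT1 were followed through an ACAT1 knockdown. They were taken by name as ACAT2, ACAA1, ACAA2, HADHB, SCP2 and HADHA, the partner subunit of HADHB, and made up 6 of the 39496 genes counted. All 6 passed the filter on low counts, which kept 20144 genes. The libraries came from UM-UC-3 and T24, both established human bladder cancer lines, grown in MEM and RPMI-1640 respectively. Cells of either line received siNC, the control siRNA, or siACAT1-1 or siACAT1-2, which both target ACAT1. The 6 groups held 3 libraries each, named as biological replicates, 18 in all. All groups shared the transfection reagent, so no group was untransfected, and the knockdown was transient and acted on the whole culture. Whether same-named replicates came from separate cultures was not stated in the sources used here, so p-values measure only the spread between these libraries.

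Thiolases carry out the last step of a turn of fatty acid β-oxidation, the cleavage of a 3-ketoacyl-CoA by coenzyme A, or run the same chemistry backwards to join acetyl-CoA units. They are divided by compartment. In mitochondria, HADHA and HADHB form the trifunctional protein for long chains, ACAA2 takes medium-length chains, and ACAT1 handles acetoacetyl-CoA in ketone body and isoleucine metabolism. In peroxisomes, ACAA1 and the long SCP2 product, sterol carrier protein X, cleave straight and branched chains, while in the cytosol ACAT2 makes acetoacetyl-CoA as the entry to cholesterol synthesis.

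A pair of promoter windows is shown. The first is the only window that a pair of these genes shared, and the second belongs to ACAA2, the gene with the largest difference between the cell lines and between the siRNAs. Each RefSeq window ran from 250 bases before to 50 bases after the start of transcription, on build GRCh38.p14, and 4 of the 6 genes had at least 1. HADHA (chr2:26190635-26244726, minus strand) and HADHB (chr2:26243170-26290468, plus strand) lie head to head, and their RefSeq windows overlapped. In the HADHB window, chr2:26244689-26244988 on the plus strand, capitals mark the 194 bases that also lie in the HADHA window (chr2:26244583-26244882, minus strand). In the ACAA2 window, chr18:49813484-49813783 on the minus strand, capitals mark CG dinucleotides, of which there were 27, against a median of 14 over all 35116 windows.
HADHB: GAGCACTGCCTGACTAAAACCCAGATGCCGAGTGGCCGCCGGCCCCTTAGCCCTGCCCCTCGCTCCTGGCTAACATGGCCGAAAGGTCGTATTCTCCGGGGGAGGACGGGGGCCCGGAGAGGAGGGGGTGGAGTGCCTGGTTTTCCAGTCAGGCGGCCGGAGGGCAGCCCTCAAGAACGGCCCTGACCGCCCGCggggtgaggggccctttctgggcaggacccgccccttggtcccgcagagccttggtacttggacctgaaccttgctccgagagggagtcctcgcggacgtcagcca
ACAA2: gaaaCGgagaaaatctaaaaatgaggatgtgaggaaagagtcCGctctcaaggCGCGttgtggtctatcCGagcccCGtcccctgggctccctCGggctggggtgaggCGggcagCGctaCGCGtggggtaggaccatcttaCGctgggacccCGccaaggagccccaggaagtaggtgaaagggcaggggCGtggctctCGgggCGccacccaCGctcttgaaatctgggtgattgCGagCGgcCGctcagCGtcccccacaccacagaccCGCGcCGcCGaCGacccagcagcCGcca
GGGCGG, searched on both strands, was found 2 times in the HADHB window and 1 time in the HADHA window. The HADHA match is 1 of the HADHB matches, as it lies in the shared bases. GGGCGG was also found 3 times in 1 SCP2 window, but not in the ACAA2 window or the other SCP2 window, and 45% of all windows held it. CCAAT and CACGTG, held by 34.6% and 7.26% of all windows on either strand, were not among the letters of the HADHA, HADHB, ACAA2 or either SCP2 window.

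The other genes lie at chr18:49782167-49813960 (minus strand) for ACAA2, chr3:38103129-38137242 (minus strand) for ACAA1, chr1:52927229-53051703 (plus strand) for SCP2 and chr6:159760328-159779055 (plus strand) for ACAT2, all in GRCh38 as in the deposited table. The genes differed in how much of their counted exon sequence another gene also covers. For HADHA and HADHB the share was 0. For ACAA2 it was 7.59%, with the same-strand gene RP11-886H22.1, for SCP2 20.7% and for ACAA1 21.2%, of which 19.7% lay opposite DLEC1. For ACAT2 it was 52.3%, with 43% opposite SOD2, the mitochondrial superoxide dismutase, and 9.23% opposite the chaperonin gene TCP1. The kit kept the strand, but the strand setting of the counting was not given in the sources used here, so the counts of such pairs are uncertain.

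Total counts per library lay between 25163490 and 34417230, with a median of 28613163. ACAT1, the siRNA target, had 46.0 ± 1.68 RPKM (reads per kilobase of exon, scaled to the total counts of the library, SD, n = 3) in UM-UC-3 siNC and 16.2 ± 1.40 RPKM in T24 siNC. Its level in the knockdown groups was 4.69% to 8.00% of the siNC mean of the same line, and in each line no knockdown library reached the lowest siNC library. Over the 4 comparisons of a siRNA with siNC the log2 fold change was -4.09 (SE 0.124, edgeR adjusted p 2.10e-12). RP11-144G7.2, which overlaps 2.92% of ACAT1's exon bases on the opposite strand, differed by -2.39 on the log2 scale (adjusted p 6.21e-08). Of 12 urothelial and epithelial markers, KRT8 and KRT18 were between 27.8 and 435 RPKM in both lines, KRT7 was at 1.94 to 7.22 RPKM in UM-UC-3 and 81.1 to 371 RPKM in T24, and KRT19 and EPCAM were at most 0.172 RPKM in UM-UC-3 and between 0.656 and 31.8 RPKM in T24. UPK2 was between 0.152 and 0.660 RPKM, and 4 others (UPK1B, UPK3A, KRT5 and CDH1) were between 0 and 0.0599 RPKM. GATA3 was at most 0.206 RPKM in UM-UC-3 and 0.371 RPKM in T24. PPARG was at most 0.448 RPKM in UM-UC-3 and between 2.90 and 6.23 RPKM in T24. Of the mesenchymal markers, VIM was between 138 and 328 RPKM. CDH2 was between 2.78 and 4.43 RPKM in UM-UC-3 and between 4.59 and 17.9 RPKM in T24. PTPRC and PECAM1, of blood and endothelium, were at most 0.0854 RPKM. In bulk RNA, fewer cells of a kind and less RNA per cell cannot be told apart.

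None of the 6 genes passed an adjusted p of 0.05 in any single comparison of a siRNA with siNC. The counts by edgeR's quasi-likelihood test without the replicate number were 0 of 6 in each. Over all genes tested, that test called 0.00993% (UM-UC-3, siACAT1-1), 0.0546% (UM-UC-3, siACAT1-2), 0.124% (T24, siACAT1-1) and 0.268% (T24, siACAT1-2). At an unadjusted p under 0.05 the members numbered 2, 1, 2 and 1 in the same order, where 5.34%, 3.86%, 11.5% and 8.44% of all genes did. Libraries of the same replicate number deviated together within each line, so a fit with a term for the number (the replicate block) was set beside it. With the block 0, 0, 3 and 1 members were called, against 3.06%, 1.36%, 13.9% and 8.48% of all genes. DESeq2 called 0, 0, 1 and 1, against 0.0894%, 0.194%, 1.98% and 1.26%. With both siRNAs averaged within a line, edgeR called 0 of 6 in UM-UC-3 (0.00993% of all genes, and 0 of 6 against 0.824% with the block) and 0 of 6 in T24 (0.0794%). In T24 the block called 1, ACAT2, where it called 9.85% of all genes. Members whose libraries did not overlap with siNC numbered 3, 1, 2 and 2, against 12.7%, 12%, 13.4% and 11.9% of all genes. Both siRNAs of a line were set against the same 3 siNC libraries. The plot of RPKM by library shows all values.

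**Figure D1:**
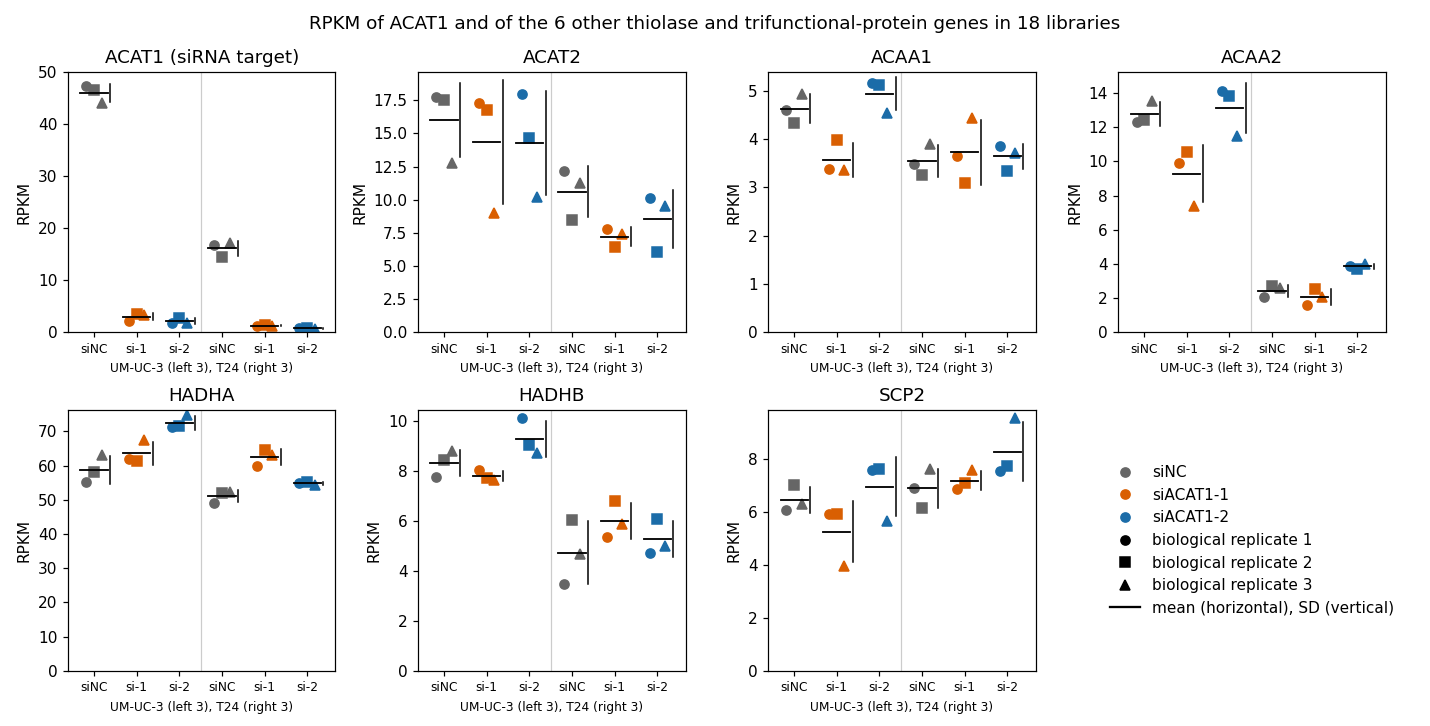
RPKM (vertical axis) of ACAT1 and of the 6 other genes in each library, by cell line and siRNA (horizontal axis: siNC, siACAT1-1 as si-1 and siACAT1-2 as si-2), with the mean and SD of 3 libraries. ACAT1 dropped in each knockdown group, HADHA was highest of the 6 in every group, and ACAA2 stood at 7.37 to 14.1 RPKM in UM-UC-3 and 1.62 to 4.01 RPKM in T24.

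HADHA, which encodes the α subunit of the trifunctional protein with its hydratase and dehydrogenase activities, was fitted higher in all 4 comparisons of a siRNA with siNC. In UM-UC-3 its RPKM in replicates 1 to 3 was 55.1, 58.0 and 63.0 with siNC, 61.8, 61.3 and 67.5 with siACAT1-1, and 71.2, 71.6 and 74.9 with siACAT1-2. In T24 it was 48.9, 52.0 and 52.2 with siNC, 59.9, 64.4 and 63.0 with siACAT1-1, and 54.9, 55.2 and 54.4 with siACAT1-2. The knockdown libraries lay above all siNC libraries in 3 of the 4 comparisons and overlapped them with siACAT1-1 in UM-UC-3. Set against the siNC library of the same line and number, HADHA was higher in 12 of 12 pairs, by 0.085 to 0.33 on the log2 scale. Of all genes tested 1.64% were higher in every pair.

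Averaged over the 4 comparisons, the HADHA difference was 0.20 on the log2 scale (SE 0.069, 95% interval 0.055 to 0.35), or 15.0% higher. Its adjusted p was 0.294 without the replicate block, 0.0235 with it and 0.00774 by DESeq2. The largest single difference was 0.30 with siACAT1-1 in T24 (adjusted p 0.295, and 0.0321 with the block). The difference between the lines in this mean effect was -0.02 (95% interval -0.31 to 0.27, adjusted p 1.00).

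HADHB encodes the β subunit, the thiolase of the complex. In UM-UC-3 its RPKM was 7.76, 8.46 and 8.79 with siNC, 8.03, 7.70 and 7.66 with siACAT1-1, and 10.1, 9.03 and 8.72 with siACAT1-2. In T24 the values were 3.48, 6.03 and 4.68 with siNC, 5.36, 6.79 and 5.89 with siACAT1-1, and 4.74, 6.10 and 5.01 with siACAT1-2. The ranges overlapped in all 4 comparisons, and in T24 replicate 2 was the highest library of each group. Within numbers HADHB was higher in 8 of 12 pairs, including 6 of 6 in T24. The mean difference was 0.14 on the log2 scale (95% interval -0.065 to 0.35, adjusted p 0.653, and 0.201 with the block), and with siACAT1-1 in T24 it was 0.37 (adjusted p 0.378) or 0.38 with the block (adjusted p 0.0382). Without T24 siNC replicate 1 these unblocked differences were 0.070 and 0.22, and without T24 siNC replicate 2 they were 0.23 and 0.53.

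RPKM of the partner subunits was far apart. The HADHA level was 7.04-fold that of HADHB in UM-UC-3 siNC (range 6.85 to 7.17) and 11.1-fold in T24 siNC (8.63 to 14.04), and it was between 7.83-fold and 10.4-fold in the knockdown groups. RPKM divides by all exon bases in the table, 3811 for HADHA and 4280 for HADHB. With the length of the MANE Select transcript instead, 2943 and 1997 bases, the siNC ratios were 4.25 and 6.68. After centring each line, the TMM log2 CPM of HADHA and HADHB had a Pearson correlation of 0.48 over 18 libraries, as a description of libraries that share siRNA and replicate number, and 5.13% of the compared genes had a higher correlation with HADHA.

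ACAA2, the mitochondrial thiolase for medium-length chains, differed between the siRNAs. In UM-UC-3 its RPKM was 12.3, 12.4 and 13.5 with siNC, 9.89, 10.6 and 7.37 with siACAT1-1, and 14.1, 13.8 and 11.5 with siACAT1-2. In T24 it was 2.05, 2.69 and 2.57 with siNC, 1.62, 2.52 and 2.08 with siACAT1-1, and 3.87, 3.68 and 4.01 with siACAT1-2. The siACAT1-1 libraries lay below all siNC libraries in UM-UC-3 and overlapped them in T24, and the siACAT1-2 libraries lay above them in T24 and overlapped them in UM-UC-3. The counts behind these values ran from 222 to 646 in T24 and from 1114 to 2122 in UM-UC-3.

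The level with siACAT1-2 exceeded that with siACAT1-1 by 0.69 on the log2 scale over both lines (SE 0.125, 95% interval 0.42 to 0.95, adjusted p 0.00867, and 8.31e-05 with the block), or 1.61-fold. ACAA2 was the 1 member of 6 called in this comparison, in which 2.56% of all genes were called. Leaving out each of the 12 knockdown libraries in turn gave 0.61 to 0.75, with adjusted p between 0.00371 and 0.0324. Against siNC, ACAA2 was lower in 6 of 6 siACAT1-1 pairs and higher in 5 of 6 siACAT1-2 pairs, and the mean over both siRNAs was 0.00 (95% interval -0.22 to 0.23). Singly, the differences were -0.46 and 0.01 in UM-UC-3 and -0.22 and 0.69 in T24, siACAT1-1 first. The last had an adjusted p of 0.166, which was 0.00463 with the block and 0.0255 by DESeq2. The overlapping gene RP11-886H22.1 moved alike between the siRNAs, by 0.67 (adjusted p 0.0403), and its part in the ACAA2 counts was not tested. ACAT1 itself was lower with siACAT1-2 than with siACAT1-1, by -0.62 on the log2 scale (adjusted p 0.0340).

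**Figure D2:**
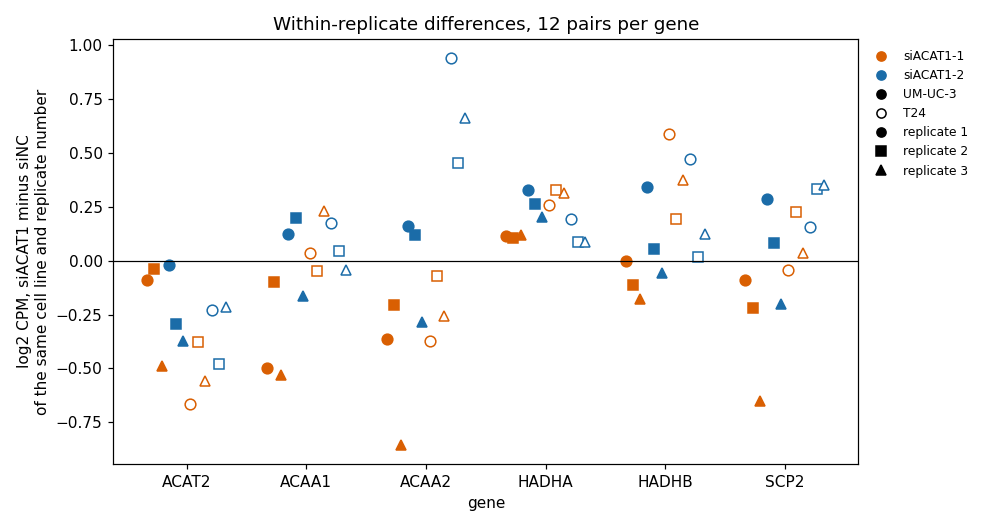
Difference in log2 CPM (vertical axis) between each knockdown library and the siNC library of the same line and replicate number, 12 pairs for each gene (horizontal axis). HADHA lay above 0 in 12 pairs and ACAT2 below 0 in 12 pairs, while ACAA2 ran from -0.85 to 0.94, with siACAT1-1 below and all but 1 of the siACAT1-2 pairs above 0.

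ACAA1 and SCP2, the peroxisomal pair, passed the test in no comparison of a siRNA with siNC, with or without the block. ACAA1, the straight-chain peroxisomal thiolase, had RPKM of 4.61, 4.33 and 4.94 with siNC, 3.38, 3.98 and 3.36 with siACAT1-1, and 5.16, 5.12 and 4.55 with siACAT1-2 in UM-UC-3. In T24 the values were 3.48, 3.25 and 3.90 with siNC, 3.65, 3.09 and 4.44 with siACAT1-1, and 3.86, 3.35 and 3.72 with siACAT1-2. Only siACAT1-1 in UM-UC-3 lay apart from its siNC libraries, at 77.2% of their mean, with a log2 difference of -0.37 (95% interval -0.73 to -0.010, adjusted p 0.933, and 0.0991 with the block). Over the 4 comparisons the difference was -0.04 (95% interval -0.26 to 0.18, adjusted p 0.952). In T24, 78.8% of its variance in log2 CPM went with the replicate number, with replicate 2 lowest in each group. DLEC1, whose exons lie opposite 19.7% of the ACAA1 exon bases, was also lower with siACAT1-1 in UM-UC-3. The DLEC1 difference from siNC was -0.42 on the log2 scale (adjusted p 0.930, and 0.110 with the block). The part of DLEC1 in the ACAA1 counts was not tested.

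SCP2, whose long product joins a thiolase to a sterol carrier domain and whose short product is the carrier alone, was counted as 1 gene. In UM-UC-3 its RPKM was 6.08, 7.01 and 6.31 with siNC, 5.91, 5.92 and 3.95 with siACAT1-1, and 7.61, 7.63 and 5.66 with siACAT1-2. In T24 it was 6.90, 6.16 and 7.64 with siNC, 6.86, 7.11 and 7.58 with siACAT1-1, and 7.53, 7.76 and 9.57 with siACAT1-2. The siACAT1-1 libraries of UM-UC-3 were all below siNC, with replicate 3 the lowest of the 18, and the other 3 comparisons overlapped. The mean difference from siNC was 0.03 on the log2 scale (95% interval -0.21 to 0.27, adjusted p 0.981). Between siACAT1-2 and siACAT1-1 it was 0.29 (95% interval 0.014 to 0.57, adjusted p 0.271), and with the block, where 20.6% of all genes were called, SCP2 was called beside ACAA2 (adjusted p 0.0153).

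ACAT2, the cytosolic acetoacetyl-CoA thiolase and the closest in reaction to ACAT1, had lower normalised CPM in every knockdown library than in the siNC library of the same line and number, while RPKM, which is not scaled for composition, was higher in 1 such pair (UM-UC-3 replicate 1, siACAT1-2). In UM-UC-3 its RPKM in replicates 1 to 3 was 17.7, 17.5 and 12.8 with siNC, 17.3, 16.8 and 8.97 with siACAT1-1, and 18.0, 14.7 and 10.2 with siACAT1-2. In T24 it was 12.1, 8.47 and 11.3 with siNC, 7.82, 6.41 and 7.40 with siACAT1-1, and 10.1, 6.07 and 9.53 with siACAT1-2. Replicate 3 was the lowest of each UM-UC-3 group and replicate 2 the lowest of each T24 group, so the ranges overlapped except with siACAT1-1 in T24. The replicate number went with 85.2% of the ACAT2 variance in UM-UC-3 and 57.1% in T24, and the siRNA with 7.56% and 36.0%.

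On the scale normalised for library size and composition, ACAT2 was lower in 12 of 12 same-number pairs, by -0.67 to -0.020 on the log2 scale, and 1.91% of all genes were lower in every pair. The mean difference was -0.30 (SE 0.18, 95% interval -0.67 to 0.070, adjusted p 0.572) without the block and -0.32 (SE 0.074, 95% interval -0.47 to -0.16, adjusted p 0.00779) with it. ACAT2 and HADHA were the 2 members called in that blocked mean of the 4 comparisons, where 12.4% of all genes were called. Without the block 0 of 6 were called, against 0.223% of all genes, with HADHA at an unadjusted p of 0.0101, and DESeq2 called HADHA alone, against 1.58% of all genes. With siACAT1-1 in T24 the ACAT2 difference was -0.55 (adjusted p 0.488), and -0.53 with the block (adjusted p 0.00706).

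The exons of SOD2 lie opposite 43% of the ACAT2 exon bases. In T24, SOD2 RPKM was 2.62, 12.8 and 3.76 with siNC, 8.71, 20.7 and 16.6 with siACAT1-1, and 2.88, 17.4 and 5.94 with siACAT1-2, highest in replicate 2 of each group, where ACAT2 was lowest. In UM-UC-3 SOD2 stayed between 1.39 and 2.64 RPKM and was lowest in replicate 3, as ACAT2 was. With siACAT1-1 in T24, where the block called ACAT2, SOD2 differed from siNC by 1.30 on the log2 scale (adjusted p 0.366). With the block that SOD2 difference was 1.57 (adjusted p 5.77e-05). With siACAT1-2 in T24 it was 0.46 (adjusted p 0.916), and 0.43 with the block (adjusted p 0.165). With both siRNAs averaged, the SOD2 difference from siNC in T24 was 0.88 on the log2 scale (adjusted p 0.618, and 1.00 with adjusted p 8.51e-04 with the block), opposite in sign to that of ACAT2. In UM-UC-3 it was -0.16 in either fit (adjusted p 1.00, and 0.735 with the block), the same sign as ACAT2. The part of SOD2 in the ACAT2 counts was not tested.

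**Figure D3:**
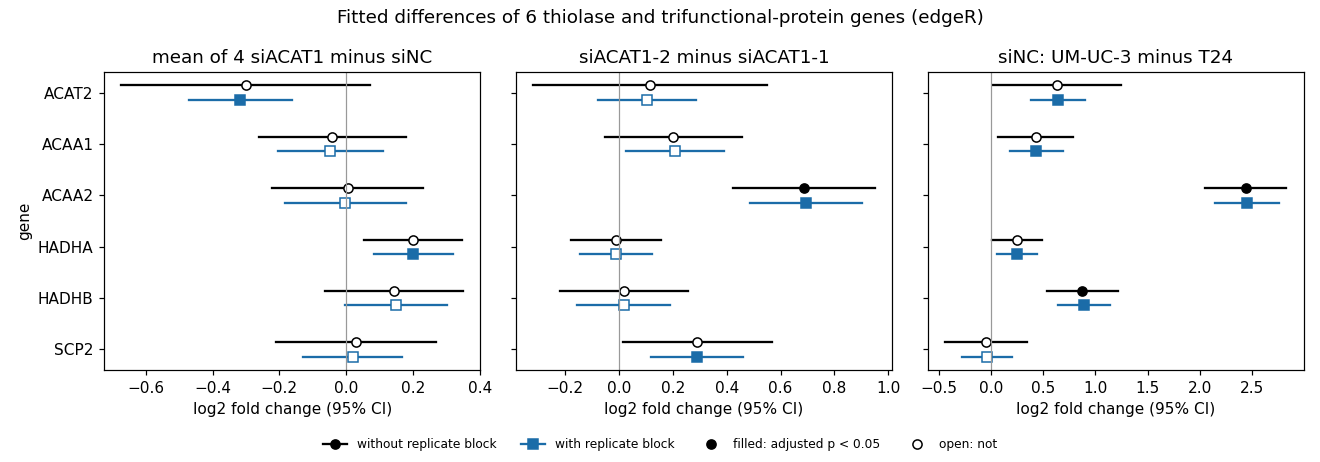
Log2 fold change with its 95% confidence interval (horizontal axis) for the 6 genes (vertical axis), for the mean of the 4 knockdown comparisons, the difference between the siRNAs and the difference between the lines with siNC, fitted without (circles) and with (squares) the replicate block. Filled symbols have an adjusted p under 0.05. ACAA2 is filled under both fits for the difference between the siRNAs and for that between the lines, at 0.69 and 2.44 without the block.

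The knockdown response was compared between the lines by its difference, UM-UC-3 minus T24. edgeR called 0 of the 6 members and 0% of all genes, with 1 member and 517 genes at an unadjusted p under 0.05, and 0 members were called with the block or by DESeq2, against 0.104% and 0.00496% of all genes. The member was ACAA2, at -0.46 on the log2 scale (95% interval -0.91 to -0.0023). For the other 5 the differences were between -0.29 and 0.24.

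With siNC, ACAA2 and HADHB were higher in UM-UC-3 than in T24. ACAA2 had 12.7 ± 0.70 RPKM in UM-UC-3 and 2.44 ± 0.339 RPKM in T24 (SD, n = 3), a log2 difference of 2.44 (SE 0.185, adjusted p 2.58e-08), or 5.41-fold. HADHB had 8.34 ± 0.524 against 4.73 ± 1.27 RPKM, a log2 difference of 0.87 (SE 0.161, adjusted p 3.23e-04). These were 2 of 6 members, in a comparison that called 44.3% of all genes. For RP11-886H22.1 the same difference was 1.62 (adjusted p 4.33e-05).

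ACAT2, at 0.63 (95% interval 0.017 to 1.25, adjusted p 0.0890), ACAA1, at 0.43 (0.066 to 0.79, adjusted p 0.0520), and HADHA, at 0.25 (0.0086 to 0.48, adjusted p 0.0866), missed the threshold. With the block, 5 of 6 were called, where 61.7% of all genes were, the exception being SCP2. SCP2 had 6.47 ± 0.485 RPKM in UM-UC-3 and 6.90 ± 0.742 RPKM in T24, a log2 difference of -0.05 (95% interval -0.44 to 0.34). The siNC libraries of the lines did not overlap in RPKM for 5 of 6 members, against 53.2% of all genes.

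Per length, the order of levels in UM-UC-3 siNC was HADHA, ACAT1, ACAT2, ACAA2, HADHB, SCP2 and ACAA1. Among neighbours, only ACAT2 and ACAA2 had overlapping ranges. In T24 siNC the order was HADHA, ACAT1, ACAT2, SCP2, HADHB, ACAA1 and ACAA2, with HADHB and ACAA1 overlapping. With MANE Select lengths 5 of the 7 genes stood at another place in UM-UC-3 siNC, ACAT1 above HADHA among them, and 2 did in T24 siNC, HADHB and ACAA1.

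ACAT1 made up 48.9% ± 0.555 of the summed RPKM of the 6 genes that encode a thiolase (all but HADHA) in UM-UC-3 siNC and 36.4% ± 1.04 in T24 siNC (SD, n = 3). After knockdown it made up 7.24% ± 2.35 and 4.28% ± 1.02 in UM-UC-3 and 4.71% ± 0.612 and 2.63% ± 0.615 in T24, siACAT1-1 first. The RPKM summed over the other 5 was 48.2 ± 1.69, 40.2 ± 7.75 and 48.6 ± 7.32 in UM-UC-3 and 28.2 ± 1.74, 26.2 ± 1.07 and 29.6 ± 2.48 in T24, in the order siNC, siACAT1-1 and siACAT1-2. The siACAT1-1 sum lay below all siNC libraries in UM-UC-3 (31.3 to 44.9 against 46.4 to 49.7) and overlapped them in T24, and the siACAT1-2 sum overlapped siNC in both lines. The total with ACAT1 went from 94.2 ± 3.20 to 43.3 ± 7.58 and 50.8 ± 7.43 in UM-UC-3 and from 44.4 ± 3.05 to 27.5 ± 1.01 and 30.4 ± 2.36 in T24. In UM-UC-3 after knockdown, ACAT2 held 32.5% ± 5.81 and 27.8% ± 3.82, and with siACAT1-2 its range overlapped that of ACAA2, at 26.0% ± 1.09, which was the higher of both in replicate 3. In T24, ACAT2 and SCP2 were close, at 26.2% ± 3.04 and 26.1% ± 0.378 with siACAT1-1.

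**Figure D4:**
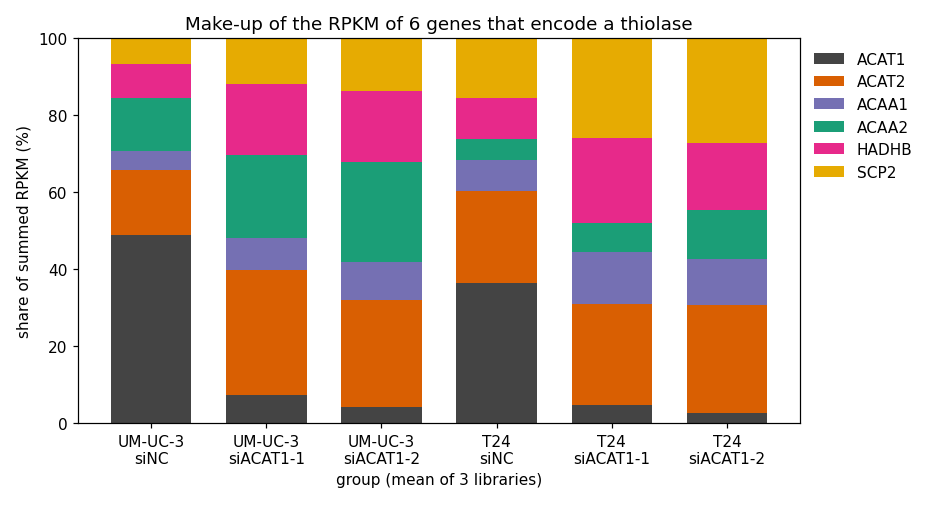
Share of the summed RPKM (vertical axis, percent) held by each of 6 genes that encode a thiolase in each group (horizontal axis, mean of 3 libraries). The ACAT1 segment went from 48.9% to 7.24% and 4.28% in UM-UC-3 and from 36.4% to 4.71% and 2.63% in T24.

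The pathways around these enzymes were described through 4 gene lists. In the mean of the 4 knockdown comparisons, 0 of 15 mitochondrial β-oxidation genes, 0 of 16 peroxisomal β-oxidation genes, 0 of 22 cholesterol synthesis genes and 0 of 13 genes of isoleucine breakdown and ketone bodies were called by edgeR without the block. Their median log2 differences were 0.11, 0.11, -0.09 and 0.01, where the median over all genes tested was -0.0013. With the block, which called 12.4% of all genes, 2, 3, 1 and 1 were called, which over the 4 lists is near the share of all genes. In the mitochondrial list HADH, the dehydrogenase for shorter chains, was lower by -0.54 (adjusted p 0.00101) and CPT2, the inner-membrane carnitine transferase, was higher by 0.34 (adjusted p 0.0318). In the peroxisomal list CROT, the carnitine octanoyltransferase, was higher by 0.36 (adjusted p 0.0350), and PEX5, the import receptor, was lower, by -0.23 (adjusted p 0.0482). MVK, the mevalonate kinase downstream of ACAT2, was lower by -0.35 (adjusted p 0.0216), and DBT, of the branched-chain ketoacid dehydrogenase, was higher by 0.36 (adjusted p 0.0425).

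Between siACAT1-2 and siACAT1-1, edgeR without the block called 3 genes over the 4 lists, and 2.56% of all genes. PEX5 was lower with siACAT1-2 by -0.76 (adjusted p 0.0129). HSD17B10, the dehydrogenase just before ACAT1 in isoleucine breakdown, was lower by -0.68 (adjusted p 0.0234), and BDH2 was higher by 0.86 (adjusted p 0.0227). None of the 15 mitochondrial and 22 cholesterol genes was called in this comparison. With the block, which called 20.6% of all genes, the counts called were 5, 5, 7 and 9, in the list order above.

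Between the lines with siNC, 44.3% of all genes were called. In the lists, 4 of 15 mitochondrial genes were higher and 3 lower in UM-UC-3 than in T24, 4 of 16 peroxisomal genes were higher and 3 lower, 8 of 22 cholesterol genes were higher and 3 lower, and 5 of 13 isoleucine and ketone body genes were higher and 3 lower. The medians were 0.27, 0.40, 0.45 and 0.24, beside 0.030 over all genes. CPT1A, which loads long chains for mitochondrial entry, had 9.65 ± 1.40 RPKM in UM-UC-3 siNC and 0.314 ± 0.105 in T24 siNC, a log2 difference of 5.004 (adjusted p 3.99e-09). ETFA, the α subunit of the electron acceptor of the acyl-CoA dehydrogenases, was at 0 counts in 7 of 9 UM-UC-3 libraries and at most 4 in the others, against 1676 to 2222 counts in T24. Against a floor of 3 counts per library, its siNC level was at least 676-fold lower in UM-UC-3 than in T24. ECH1 was higher in UM-UC-3 by 2.23 (adjusted p 1.24e-05), and EHHADH, the peroxisomal bifunctional enzyme, was lower by -3.26 (adjusted p 3.45e-05). INSIG1 of the cholesterol list was higher by 2.23 (adjusted p 5.49e-04), and AACS, which activates acetoacetate in the cytosol, was lower by -1.49 (adjusted p 6.61e-07).

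The genes most like each member were found by the Pearson correlation of TMM log2 CPM over the 18 libraries after subtracting each line's mean, among 9138 other genes. These values describe libraries that share siRNA, replicate number and depth. For ACAT2 they were the cell cycle genes STMN1, NCAPH and FOXM1, at 0.959, 0.959 and 0.956. For ACAA1 the first was its opposite-strand neighbour DLEC1, at 0.906, with HINT1 and PPT2-EGFL8 next, at 0.886 and 0.883. ACAA2 had MAPK11, PPP1R7 and TAPBP, at 0.909, 0.870 and 0.867, and SCP2 had PLXND1, CAPN1 and ZMYM3, at 0.933, 0.926 and 0.902. HADHA had ST13, APOL1 and COPE, at 0.880, 0.851 and 0.839. For HADHB they were RP5-1187M17.10, CSTB and ECH1, at 0.853, 0.847 and 0.844. Within a line, of 9 libraries, some values were less alike, in either direction. RP5-1187M17.10 with HADHB had 0.478 in UM-UC-3 and 0.952 in T24, and MAPK11 with ACAA2 had 0.709 and 0.992. COPE with HADHA had 0.957 in UM-UC-3 and 0.732 in T24.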

How the data were processed

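Total RNA was sequenced from 18 libraries with a stranded mRNA kit that carried molecular identifiers. Per the labels' processing notes the authors used Trimmomatic 0.36, STAR 2.5.3 and featureCounts of Subread 1.5.1 on GRCh38. The deposited counts are whole reads per gene, and the deposited RPKM equalled those counts per kilobase of exon, scaled to total counts. Counts were fitted here with edgeR 4.0.16 (R 4.3.3; TMM, filterByExpr, 1 coefficient per group, quasi-likelihood test, Benjamini-Hochberg over 20144 genes) and RPKM were used for levels. The design had no block. Same-numbered libraries of a line deviated together, with correlations of 0.115 to 0.576 in UM-UC-3 and 0.356 to 0.686 in T24, so a fit with the replicate number as block was set beside it. Alternatives were DESeq2 1.42.0, limma 3.58.1 on log2 RPKM with pseudocounts of 1 and 0.1, RLE scaling, no low-count filter, single lines and leaving out each library. Both fits were also run on simulated counts with 200 changed genes. Those counts held no differences between lines or replicate numbers, so that run cannot decide between the fits. The 18 pairs of libraries within groups differed by more than sampling noise, with chi-square per degree of freedom of 11.8 to 174. The promoter windows are RefSeq's. Named genes were the members, ACAT1, genes overlapping them, up to 4 genes per list with the smallest adjusted p, and the 3 most correlated genes. The members and lists were chosen with earlier results of these data known. Intervals cover the spread between libraries only. Some genes of the lists are counted but not reported here by name.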

Additional observations from a re-analysis of the deposited data

Results flagged for a closer look

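The ACAA2 difference from siNC was not alike for the siRNAs. The test of that difference gave 0.69 on the log2 scale (siACAT1-2 minus siACAT1-1, edgeR adjusted p 0.00867), and within replicate numbers siACAT1-2 lay above siNC in 5 of 6 pairs and siACAT1-1 below it in 6 of 6. No other member had a called difference between the siRNAs in the fit without the block, and no member had a called difference between the lines in its knockdown effect. Groups held 3 libraries, so no library was tested as an outlier.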

How the results depend on the processing

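Of 780 single-gene values under an alternative, 719 kept their sign and their side of the threshold, 16 became called, 45 changed sign with none of them called, and 0 lost a call. Of the 719, 432 came from leaving out a library in edgeR without the block. That fit had called only ACAA2 between the siRNAs, and ACAA2 and HADHB between the lines. No other result could lose a call, so most of the 719 were uncalled values that stayed uncalled. With the replicate block the members called were 3 with siACAT1-1 in T24, 1 with siACAT1-2 in T24, 1 for both siRNAs in T24, 2 for the mean of the 4 comparisons, 2 between the siRNAs and 5 between the lines, and the block changed no other member count. DESeq2 called 1 with either siRNA in T24, 1 for the mean of the 4 comparisons and 4 between the lines, and limma called 0 in each comparison of a siRNA with siNC. Leaving out each library in turn was done in edgeR without the block only, and left every member count of that fit as it was. Over all genes, the mean of the 4 comparisons had 45 calls, 2500 with the block, 318 by DESeq2 and 383 without the low-count filter, and siACAT1-1 in T24 had 25, 2799, 399 and 463. Why the tools differed was not tested.

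Differences near 0 changed sign. For ACAA2 the block gave -0.0088 with siACAT1-2 in UM-UC-3 and -0.0033 for the mean, and limma gave -0.015 and -0.0044 for the mean. For HADHA the difference between lines in the knockdown effect was 0.011 without the filter and 0.015 by limma with either pseudocount, and that between siRNAs was 0.0030 and 0.0029 by limma. Leaving out a library gave ranges across 0 for ACAT2 with siACAT1-1 (-0.32 to 0.088) and siACAT1-2 (-0.41 to 0.022) in UM-UC-3 and between siRNAs (-0.011 to 0.23), for ACAA1 in T24 with siACAT1-1 (-0.062 to 0.22) and siACAT1-2 (-0.054 to 0.13), and for ACAA2 with siACAT1-2 in UM-UC-3 (-0.055 to 0.13) and in the mean (-0.032 to 0.041). It did so for SCP2 with siACAT1-2 in UM-UC-3 (-0.012 to 0.23), siACAT1-1 in T24 (-0.052 to 0.13), the mean (-0.024 to 0.073) and between lines (-0.19 to 0.013), for HADHA between lines in the knockdown effect (-0.060 to 0.034) and between siRNAs (-0.038 to 0.0070), and for HADHB between siRNAs (-0.020 to 0.047). MANE Select lengths, an alternative chosen after seeing the data, gave HADHA to HADHB ratios of 4.25 and 6.68, ACAT1 shares of 57.4% and 42.3% (UM-UC-3 and T24 siNC), and 5 genes at another rank in UM-UC-3 siNC.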
